A study of Rattus norvegicus with 9 samples.

Results

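The genes described here encode the machinery that moves a newly made secreted protein through the endoplasmic reticulum (ER), folds it there and carries it to the Golgi. The set held 60 genes, which were chosen by function, with earlier results of these data known: 3 transcription factors of the ER, 5 components of the translocation channel, 10 subunits of the TRAP complex, signal peptidase and oligosaccharyltransferase, 11 chaperones and co-chaperones, 4 protein disulphide isomerases, 10 genes of the COPII coat, 8 of the COPI coat, and 9 cargo and retrieval receptors. A gene was measured where the array held a probe set naming it alone, and the brightest such probe set stood for it. This gave 58 of the 60 genes, among 14217 genes measured in all, and Sec23a and Sec24a were not analysed here.

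Whole bone was taken from male CD rats with a labelled weight of 110 g. RNA of the skull (calvaria, the flat roof of the cranium) was measured on 4 arrays and RNA of the limb (ulna, a long bone of the foreleg) on 5 arrays of the Affymetrix Rat Genome 230 2.0 type, to ask how bones of different origin differ in basal expression. According to the study's methods soft tissue, sutures and epiphyses were removed and each extract pooled several rats, so that a replicate is a pool of animals and the errors given below are between pools. The tissue field of ulna 1 to 4 names calvarial bone, against their titles and source names. The summed signal of 6 positional genes of the limb was 333 to 438 on the 5 limb arrays and 24.18 to 59.1 on the 4 skull arrays, so that all 5 arrays titled ulna stood together and apart from those titled calvaria.

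Bone-forming cells secrete collagen and other matrix proteins in bulk, and each of these proteins enters the ER through the Sec61 channel, loses its signal peptide, receives sugars and disulphide bonds, and folds with the help of chaperones. Vesicles with a COPII coat carry it forward to the Golgi, and vesicles with a COPI coat bring escaped ER residents back, guided by receptors that read a retrieval signal at the end of the protein. When folding falls behind, the unfolded protein response adjusts this machinery through factors such as Xbp1 and Atf6, and the related factor Creb3l1, also called OASIS, is known for driving collagen secretion in osteoblasts.

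Most of these genes had more signal in skull than in limb. Signals are MAS5 intensities scaled to a common array median, differences are skull minus limb on the log2 scale with the standard error (SE), and p-values are from limma, adjusted by Benjamini and Hochberg over all 14217 genes. At an adjusted p below 0.05 37 of the 58 genes were higher in skull, or 63.8%, against 14.2% of all genes. None was lower at this threshold, against 18.1% of all genes, while 3 were lower at an unadjusted p below 0.05 and the methods' t-test with adjustment also called 0 lower. When a difference of at least 2-fold was required as well, 6 genes were higher and 0 lower, against 3.59% and 4.47% of all genes. The median difference was 0.39 over the 58 genes and -0.02 over all genes.

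Every skull array lay above every limb array for 33 of the 58 genes, a pattern held by 12.4% of all genes. The reverse pattern was seen in 2, Sec61g and Sdf2l1, and in 16.4% of all genes. The mean signals of the members were 112.2 to 2420, with no array below 69.4, whereas the brightest of the control probe sets for absent transcripts reached 8.34. Among the 9481 genes left when dim probe sets were removed, 20.6% were higher and 26.7% lower at the adjusted p alone. With that filter 37 members were higher and 1 lower, Sec61g (limma adjusted p = 0.0184).

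**Figure D1:**
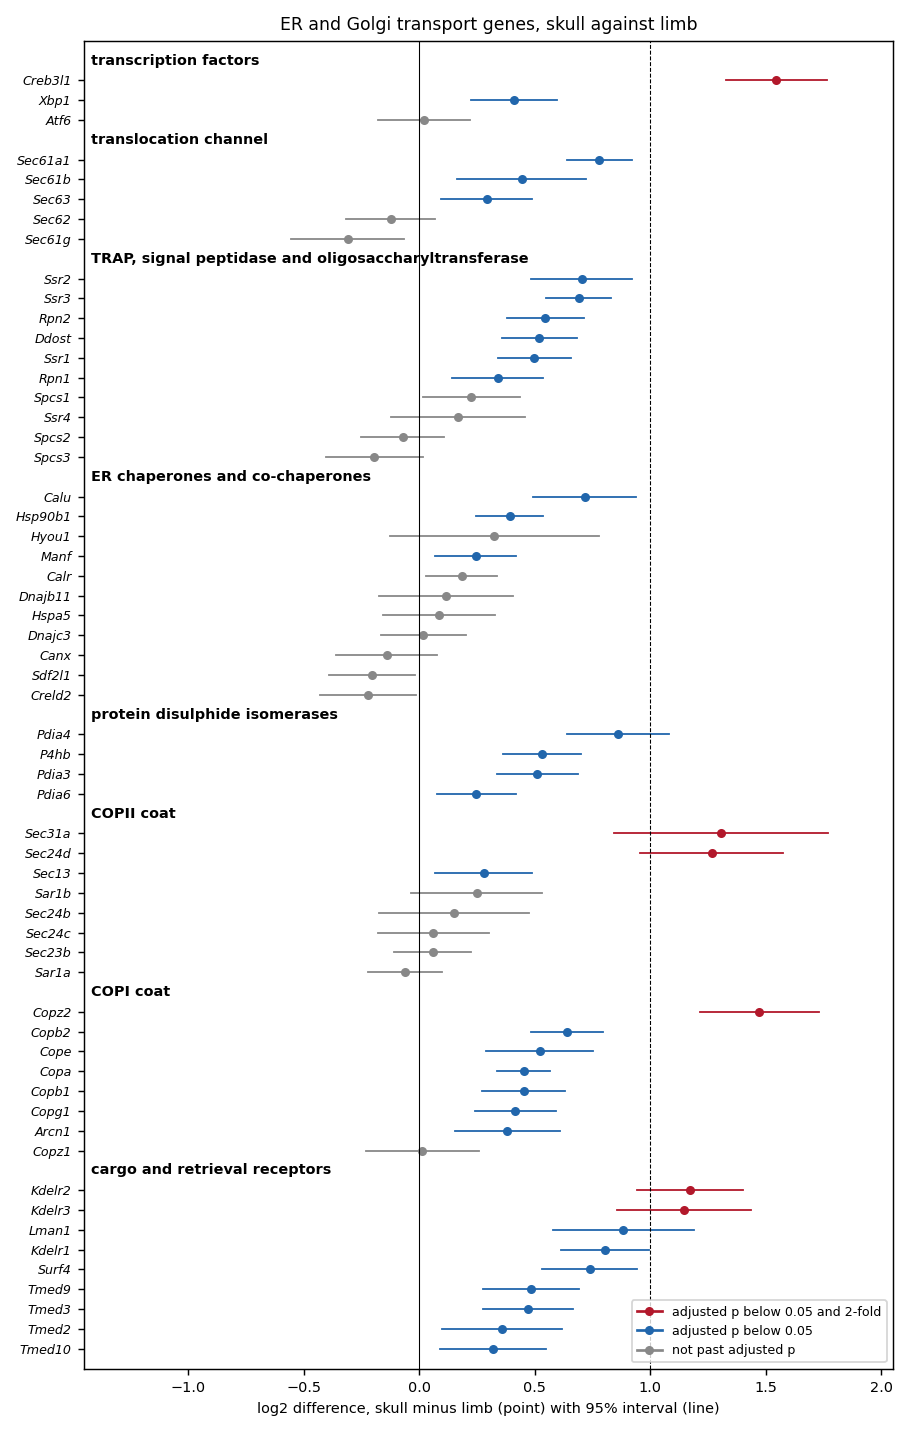
Log2 difference (skull minus limb, point) with its unadjusted 95% interval (line) for the 58 measured genes, grouped by role. Red marks the 6 genes past the adjusted p and 2-fold (dashed line at 1), blue the other 31 past the adjusted p and grey the 21 that were not. All 9 cargo and retrieval receptors lie to the right of 0, whereas the chaperones straddle it.

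Among the transcription factors Creb3l1, a membrane-bound factor that is cut and released from the Golgi, showed the largest difference of all 58 genes. Its signal was 502.1, 607.7, 474.0 and 629.8 on the skull arrays and 179.2, 207.8, 173.3, 195.6 and 186.7 on the limb arrays. The sites were far apart, with the lowest skull array more than 2-fold above the highest limb array. The difference was 1.55 ± 0.10 (SE, n = 4 and 5), an S:L ratio of 2.94, with a limma adjusted p of 1.56e-05.

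Xbp1, the factor made active by splicing of its mRNA in the unfolded protein response, differed less. Its signals were 1110, 1151, 1242 and 1021 in skull and 874.7, 889.9, 874.2, 888.7 and 724.1 in limb, without overlap. The difference was 0.41 ± 0.08 (limma adjusted p = 0.0045). The array reports total Xbp1 RNA, not its spliced form.

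Atf6, the stress sensor that is released by the same proteases as Creb3l1, gave overlapping signals of 215.3 to 250.9 in skull and 216.5 to 281.9 in limb. Its difference was 0.02 ± 0.09 with an unadjusted 95% interval of -0.18 to 0.22 (limma adjusted p = 0.893). A dim second probe set of Atf6, with a mean signal of 21.85, gave -0.21 ± 0.35.

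**Figure D2:**
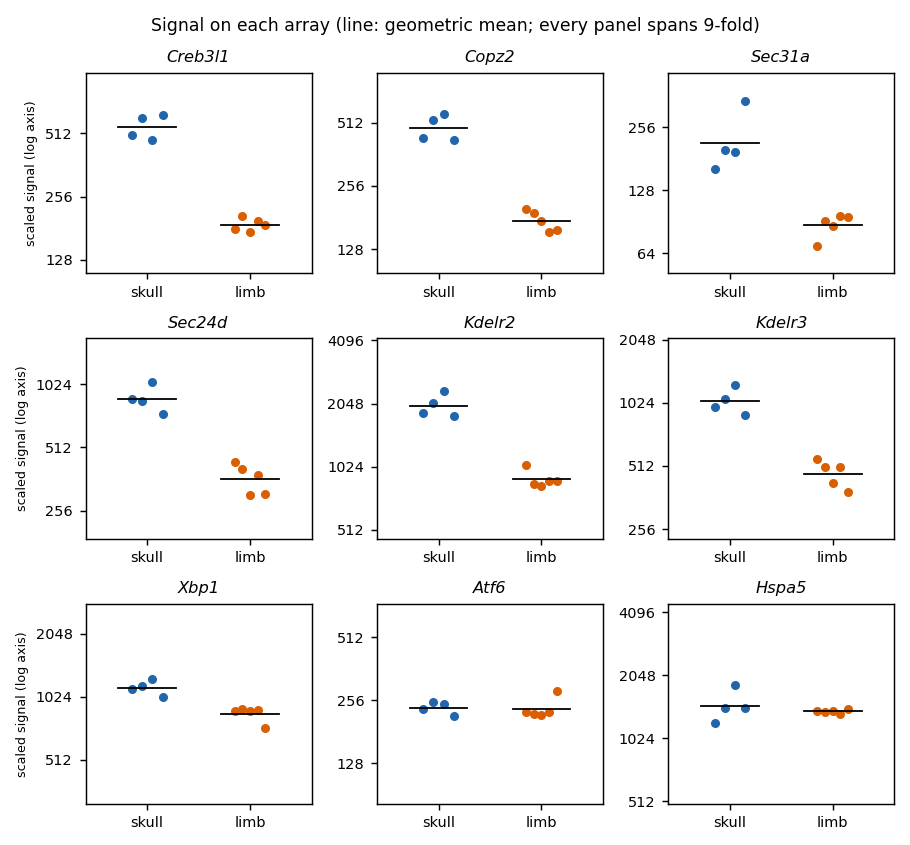
Scaled signal on each array (points, log axis, 9-fold in every panel) with the geometric mean (line) for the 6 genes past both thresholds and for Xbp1, Atf6 and Hspa5. The top 6 panels show skull (blue) clear of limb (orange) on all arrays, whereas Atf6 and Hspa5 overlap.

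In the translocation channel 3 of 5 genes were higher in skull and none was lower at the adjusted p, where 14.2% and 18.1% of all genes were. Sec61a1, which encodes the pore itself, had signals of 897.9, 942.3, 950.5 and 830.1 in skull and 525.0, 538.9, 493.3, 503.9 and 574.0 in limb. All skull arrays lay well above the limb arrays, and the difference was 0.78 ± 0.06 (limma adjusted p = 4.02e-05). A dimmer probe set of Sec61a1 gave 0.56 ± 0.10 and a further probe set lay below the floor on all arrays. With the mean of all its probe sets the difference was 0.45. The small subunit Sec61b and the J-domain protein Sec63, which links the channel to the chaperone BiP, differed by 0.44 ± 0.12 and 0.29 ± 0.09 in the same direction. Of 3 dimmer probe sets of Sec63, 1 was also past the adjusted p at 0.95 ± 0.16, and the others gave 0.34 ± 0.19 and, near the absent controls, -0.36 ± 0.30.

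Sec61g, the other small subunit of the pore, went against the rest. Its signals were 2201, 2236, 2341 and 1772 in skull and 3083, 2510, 2741, 2423 and 2469 in limb, so that skull was lower on all arrays. The difference of -0.31 ± 0.11 missed the threshold (limma adjusted p = 0.0562), and 3 of the alternative settings placed it past the threshold. Sec62, an auxiliary channel protein, differed by -0.12 ± 0.09 with overlapping arrays.

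TRAP is a complex beside the channel that helps some signal sequences to engage. Of its 4 genes 3 were higher in skull, against 14.2% of all genes. Ssr2 had signals of 931.3, 1051, 1194 and 847.8 in skull and 628.7, 617.8, 566.7, 652.9 and 601.9 in limb, a difference of 0.70 ± 0.10 (limma adjusted p = 0.000582). Ssr3 and Ssr1 differed by 0.69 ± 0.06 and 0.50 ± 0.07. Both further probe sets of Ssr3 and the further one of Ssr1 were also higher in skull, by 0.55, 0.57 and 0.65. Ssr4 differed by 0.17 ± 0.13 and did not pass.

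The oligosaccharyltransferase, which transfers the sugar chain to the growing protein, was represented by Rpn1, Rpn2 and Ddost. All 3 were higher in skull, against 14.2% of all genes. The differences of the 3 genes were 0.34 ± 0.09, 0.55 ± 0.07 and 0.52 ± 0.07, with no overlap between sites. The signal peptidase, which cuts the signal sequence off, showed no gene past the adjusted p. Spcs1, the brightest gene of the group, differed by 0.22 ± 0.09 (limma adjusted p = 0.0976) and passed with unscaled signals, with quantile normalization and without skull 4. Spcs2 differed by -0.07 ± 0.08 and Spcs3 by -0.19 ± 0.09 (limma adjusted p = 0.149), and the arrays of all 3 overlapped.

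The chaperones were the group with the smallest median difference, 0.11. Of the 11 genes 3 (27.3%) were higher in skull, against 14.2% of all genes and 20.6% when dim probe sets were left out. Hspa5 encodes BiP, the major Hsp70 of the ER and a common readout of ER stress. Its signals were 1216, 1424, 1846 and 1430 in skull and 1388, 1361, 1389, 1333 and 1417 in limb. The limb arrays lay within the range of the skull arrays, and the difference was 0.09 ± 0.11 with an unadjusted 95% interval of -0.16 to 0.33.

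The 3 chaperones past the adjusted p were Calu, Hsp90b1 and Manf. Calu, which encodes the calcium-binding protein calumenin, had signals of 854.9, 993.1, 998.2 and 738.5 in skull and 578.0, 564.1, 481.0, 547.2 and 541.8 in limb, a difference of 0.72 ± 0.10 (limma adjusted p = 0.000587). Hsp90b1, the Hsp90 of the ER, differed by 0.39 ± 0.06, and Manf, a small secreted stress protein, by 0.24 ± 0.08. All 3 were without overlap between the sites.

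Calreticulin and calnexin, the lectin chaperones that hold glycoproteins during folding, did not pass the threshold. Calr, the brightest chaperone, differed by 0.18 ± 0.07, with every skull array above every limb array (limma adjusted p = 0.0676), and passed with the higher floor, with unscaled signals and with quantile normalization. Canx differed by -0.14 ± 0.10, and its other 2 probe sets by -0.01 and 0.15. The remaining co-factors of BiP gave 0.11 ± 0.13 for Dnajb11, 0.02 ± 0.08 for Dnajc3, 0.33 ± 0.20 for Hyou1 and -0.20 ± 0.08 for Sdf2l1. Sdf2l1 was lower on all skull arrays, at 381.7 to 507.6 against 518.3 to 556.5, with a limma adjusted p of 0.0919. Creld2, an ER stress-induced protein, had signals of 237.2, 258.6, 259.7 and 244.4 in skull and 236.7, 328.1, 308.6, 286.8 and 306.1 in limb, a difference of -0.22 ± 0.09 (limma adjusted p = 0.0964). Only limb 1 reached down to the skull range, and Creld2 passed the threshold as lower when that array was left out.

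The protein disulphide isomerases, which form and shuffle disulphide bonds, were higher in skull in 4 of 4 genes without overlap of the arrays. The share higher was 14.2% over all genes and 20.6% when dim probe sets were left out. Pdia4 had the largest difference of the group, with signals of 491.2, 570.0, 668.9 and 483.6 in skull and 288.9, 284.5, 317.9, 303.9 and 318.1 in limb. This gave 0.86 ± 0.10 (limma adjusted p = 0.000207). P4hb, which is also the beta subunit of the prolyl hydroxylase that stabilises the collagen helix, gave 2443, 2792, 2826 and 2453 in skull and 1722, 1887, 1814, 1737 and 1924 in limb. All skull arrays were higher, by 0.53 ± 0.07 (limma adjusted p = 0.000623). Pdia3, the partner of calreticulin and calnexin, differed by 0.51 ± 0.08 and Pdia6 by 0.25 ± 0.08 (limma adjusted p = 0.0334).

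The COPII coat divided into a few genes with large differences and a majority with small ones. Of its 8 measured genes 3 were higher in skull (37.5%, against 14.2% of all genes), 2 of them by more than 2-fold. Sec24d encodes a cargo-binding subunit of the inner coat that is known for its part in the export of procollagen. Its signals were 874.6, 855.9, 1048 and 740.9 in skull and 438.8, 406.4, 304.8, 378.1 and 307.8 in limb. The sites did not overlap, and the difference was 1.26 ± 0.14, an S:L ratio of 2.40 (limma adjusted p = 0.000167).

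Sec31a, the outer coat protein, gave 162.2, 199.7, 195.3 and 343.2 in skull and 69.4, 91.34, 86.87, 96.06 and 95.8 in limb. Skull 4 stood well above the other skull arrays, and the difference was 1.31 ± 0.20 (limma adjusted p = 0.00122) with all arrays and 1.08 at the lowest when an array was left out. A dim second probe set of Sec31a differed by 0.60 ± 0.20 and did not pass (limma adjusted p = 0.0641). When the 2 probe sets were averaged the difference was 0.95, short of 2-fold.

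Sec13, the partner of Sec31a in the outer coat and also a nuclear pore protein, differed by 0.28 ± 0.09 (limma adjusted p = 0.0467), and its arrays overlapped through skull 4. The other cargo-binding paralogues Sec24b and Sec24c differed by 0.15 ± 0.14 and 0.06 ± 0.10, and the inner coat gene Sec23b by 0.06 ± 0.07. Of the GTPases that start the coat, Sar1b differed by 0.25 ± 0.12. The 2 probe sets of Sar1a disagreed. The brighter by mean log2 signal gave 653.5 to 788.8 in skull and 714.2 to 843.8 in limb, a difference of -0.06 ± 0.07, whereas the other gave 828.3 to 981.6 in skull and 493.1 to 607.3 in limb, a difference of 0.67 ± 0.08 (limma adjusted p over all probe sets = 0.000307). By the rule for representing a gene Sar1a counts among the 21 not past the threshold, and its direction depends on the probe set.

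In the COPI coat 7 of 8 genes were higher in skull (87.5%), against 14.2% of all genes and 20.6% when dim probe sets were left out. Copz2, one of the paralogous zeta subunits, had the second largest difference of the 58 genes. Its signals were 432.8, 531.0, 561.7 and 422.3 in skull and 199.5, 189.4, 173.7, 154.1 and 158.3 in limb. Every skull array was more than 2-fold above every limb array, and the difference was 1.47 ± 0.11, an S:L ratio of 2.78 (limma adjusted p = 3.52e-05).

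Copz1, the other zeta subunit, gave overlapping signals of 689.1 to 1004 in skull and 733.8 to 862.9 in limb. Its difference was 0.01 ± 0.11 with an unadjusted 95% interval of -0.23 to 0.26, and a further probe set gave 0.11 ± 0.09. The other 6 coat genes all passed the adjusted p. Copa, the brightest, gave 1399, 1436, 1490 and 1330 in skull and 1060, 1063, 1030, 1021 and 990.3 in limb, a difference of 0.45 ± 0.05 (limma adjusted p = 0.000211). Copb1, Copb2, Copg1, Cope and Arcn1 differed by 0.45, 0.64, 0.42, 0.52 and 0.38, and of these only Arcn1 had overlapping arrays. A second probe set of Copg1 gave a larger difference, 0.83 ± 0.14.

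All 9 cargo and retrieval receptors were higher in skull at the adjusted p, against 14.2% of all genes and 20.6% when dim probe sets were left out. The median difference of the receptors, 0.74, was the largest of the 8 groups. The KDEL receptors bind the tail signal of ER residents such as BiP in the Golgi and return them through COPI vesicles. Kdelr2 gave 1852, 2064, 2356 and 1786 in skull and 1047, 843.8, 826.6, 872.5 and 876.2 in limb. Skull was higher on all arrays, by 1.17 ± 0.10, an S:L ratio of 2.25 (limma adjusted p = 5.73e-05).

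Kdelr3 gave 981.8, 1073, 1245 and 898.2 in skull and 555.8, 503.7, 424.4, 504.1 and 385.0 in limb, again without overlap. The difference was 1.15 ± 0.13, an S:L ratio of 2.21 (limma adjusted p = 0.0002). Kdelr1 fell just short of 2-fold at 0.81 ± 0.08, an S:L ratio of 1.75. The cargo receptor Lman1, which collects certain glycoproteins into COPII vesicles, differed by 0.88 ± 0.13, and Surf4, a cargo receptor that cycles between ER and Golgi, by 0.74 ± 0.09. A second probe set of Surf4 gave 0.97 ± 0.10.

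The p24 family proteins Tmed2, Tmed3, Tmed9 and Tmed10, which sort cargo on both coats, differed by 0.36, 0.47, 0.49 and 0.32. Tmed10 had the smallest difference of the receptors (limma adjusted p = 0.0398), and Tmed2 and Tmed10 overlapped through skull 4. Lman1, Pdia4, Kdelr1 and Sec61a1 were the genes closest below the 2-fold threshold and Kdelr3 the one closest above it.

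**Figure D3:**
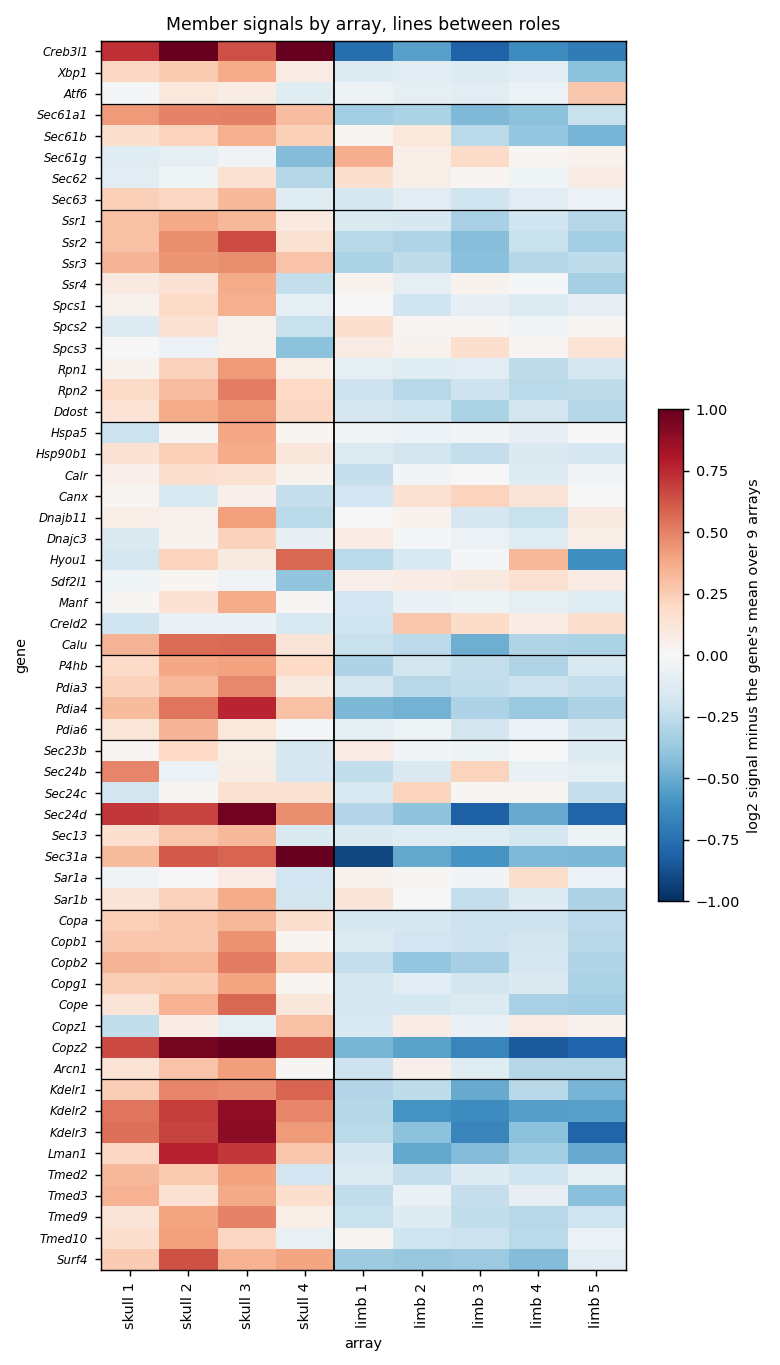
Log2 signal of each measured gene on each array, minus the mean of that gene over the 9 arrays, with genes in order of role and colours ending at 1 and -1. The 4 skull columns are mostly red and the 5 limb columns mostly blue from Ssr1 to Ssr3, through the COPI coat and through the receptors, whereas the chaperone block is mixed.

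The arrays of each site differed among themselves in a shared way. The median of the member deviations was 0.17, 0.26, 0.37 and 0.08 on skull 1, 2, 3 and 4, and lay between -0.22 and -0.14 on the 5 limb arrays. Skull 3 was the highest and skull 4 the lowest of the skull arrays. Creb3l1, Sec31a, Kdelr1, Hyou1 and Copz1, named after their values were seen, went the other way and were highest of the skull arrays on skull 4.

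Paralogues with different values were then compared on the same array, in 7 pairs chosen after their values had been seen. Since the pairs set genes with large differences against genes with small ones, the log2 ratio of the 2 genes on each array is given as a description, with no test. The ratio cancels whatever scales both genes alike on an array, but its level has no meaning between probe sets, so that its change between sites is given. The ratio of Copz2 to Copz1 was 1.46 ± 0.19 higher in skull, that of Sec24d to Sec24b 1.11 ± 0.23 and that of Sec24d to Sec24c 1.20 ± 0.17. For Creb3l1 the change was 1.53 ± 0.15 against Atf6 and 1.13 ± 0.15 against Xbp1. These 5 ratios did not overlap between the sites.

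For the KDEL receptors the change in the ratio to Kdelr1 was 0.36 ± 0.12 for Kdelr2 and 0.34 ± 0.13 for Kdelr3, and in both the ratio on skull 4 lay within the limb range.

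**Figure D4:**
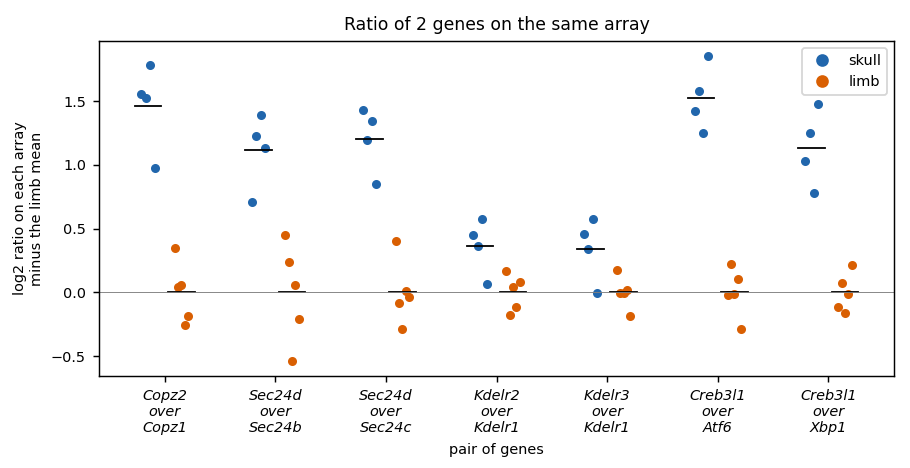
Log2 ratio of 2 genes on the same array, minus the mean of the 5 limb arrays, for 7 pairs (points: arrays, lines: site means). Skull (blue) lies clear of limb (orange) in 5 pairs and overlaps it in the 2 pairs with Kdelr1.

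The promoters of these genes hold known binding motifs of the unfolded protein response. Windows from 250 bases before to 50 bases after the gene start were taken from RefSeq (assembly GRCr8) for 50 of the 60 genes, and motifs were searched on both strands. The ER stress response element (ERSE) is CCAAT, 9 bases of any kind and CCACG, and it was found in 7 of the 50 member windows (14.0%) and in 0.0765% of all 27457 windows. These were the windows of Hspa5, Xbp1, Hsp90b1, Calr, Canx, Dnajc3 and Creld2. Stretches around the element (in capitals) are shown for a gene with no detectable difference, for a factor that differed, and for 3 further chaperones, with the sequence read 5′ to 3′ on the strand of the gene.
Hspa5, chr3:38452958-38453006, plus strand: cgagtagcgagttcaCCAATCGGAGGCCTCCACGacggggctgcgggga
Xbp1, chr14:84604543-84604591, plus strand: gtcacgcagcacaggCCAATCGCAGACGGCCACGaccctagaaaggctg
Hsp90b1, chr7:23012436-23012484, minus strand: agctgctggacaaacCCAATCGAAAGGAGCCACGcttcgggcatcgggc
Canx, chr10:35158054-35158102, minus strand: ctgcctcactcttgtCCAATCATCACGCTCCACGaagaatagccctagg
Dnajc3, chr15:102432519-102432567, plus strand: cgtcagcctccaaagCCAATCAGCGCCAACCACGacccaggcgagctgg

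The 5 elements shown lay upstream of the gene start and read in the direction of the gene. A second form, ERSE-II (ATTGG, 1 base of any kind and CCACG), was found in the windows of Dnajb11 and Hyou1 and in 0.0619% of all windows. Of the 9 genes with either form 2 were higher in skull at the adjusted p, Xbp1 and Hsp90b1, where 14.2% of all genes were. The median difference of the 9 was 0.11. All of them except Xbp1 belong to the chaperone group, whose median was also 0.11, so that motif and group cannot be told apart. Of the 39 measured genes whose window held neither form 28 were higher, with a median of 0.45. The motifs were chosen after the values of the genes were known, so that these counts are a description without a test.

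The unfolded protein response element (UPRE), searched as TGACGTGG, was found in 6 member windows (12%) and in 0.681% of all windows. Of the 5 measured genes among these, Copa, Copb1, Copb2 and Kdelr3 were higher in skull, whereas Hyou1 was not past the threshold. The share higher over all genes was 14.2%. The median difference of the 5 was 0.45. In Hyou1 the UPRE shares bases with an ERSE-II. The stretch of Kdelr3 is shown because this gene had the largest difference of the 5, with the element in capitals and in reverse orientation.
Kdelr3, chr7:112959516-112959553, plus strand: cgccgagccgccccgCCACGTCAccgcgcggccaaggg

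The shorter ACGTG core, which lies within the UPRE, was found in 60.0% of the member windows and 20.9% of all windows, and the CCAAT box, which lies within the ERSE, in 58.0% and 39.6%. A match shows only that these letters are present in the window. No window was given for Sec24d or Kdelr2, and those of Creb3l1, Copz2 and Sec31a held none of the 3 longer motifs.

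Of 123 other genes of the same pathway 119 were measured, with a median difference of 0.26. At the adjusted p 49 of them (41.2%) were higher in skull and 11 lower, against 14.2% and 18.1% of all genes. At 2-fold as well, 4 were higher and 3 lower, shares close to or below the 3.59% and 4.47% of all genes. Those higher were Rcn3, a calcium-binding ER chaperone of collagen-making cells, at 1.37 ± 0.10, the COPII scaffold gene Sec16b at 1.31 ± 0.17, the COPI regulator Arfgap3 at 1.14 ± 0.09, and Fkbp11, a prolyl isomerase of secretory cells, at 1.08 ± 0.09. These 4 showed no overlap between the sites.

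Of 10 measured sensors and regulated factors of the unfolded protein response outside the member set, 1 was higher and 4 lower, where 14.2% and 18.1% of all genes were, and no test of the list was run. The gene higher was Mbtps1, which encodes the protease that first cuts Atf6 and Creb3l1, at 0.41 ± 0.07. Of those lower, Trib3, a pseudokinase induced by stress, gave 14.84, 18.94, 17.76 and 25.72 in skull and 54.47, 45.16, 43.66, 39.18 and 75.75 in limb, a difference of -1.41 ± 0.24 (limma adjusted p = 0.00177), which shrank to -0.92, short of 2-fold, with a pseudocount of 16. Ppp1r15a, which restores translation after stress, gave 181.9, 173.6, 114.4 and 160.4 in skull and 291.3, 353.3, 331.8, 297.4 and 443.7 in limb, a difference of -1.13 ± 0.16 (limma adjusted p = 0.000798) and of -0.98 without skull 3. Both were lower on all skull arrays.

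The stress factors Ddit3 (CHOP) and Atf4, named after their values were seen, were lower by smaller amounts, -0.32 ± 0.10 and -0.28 ± 0.07. In ER-associated degradation, which removes misfolded proteins, 1 of 10 genes was higher and 2 were lower, close to the shares of all genes. Selenos was higher, at 0.465 ± 0.068, and Nploc4 and Herpud1 were lower, at -0.38 ± 0.07 and -0.21 ± 0.05. The third gene lower by 2-fold was Tram2, a translocation protein linked to collagen synthesis, with signals of 2.15 to 12.3 in skull and 18.3 to 35.04 in limb. Of its skull arrays 3 lay below the absent controls, so that the size of this difference is not resolved.

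Over all genes 14.2% were higher and 18.1% lower at the adjusted p, and the counts of the remaining lists are given beside these shares. Assembly factors and cargo proteins of COPII were higher in 13 of 21 genes and lower in 1. Further ER oxidoreductases, chaperones and calcium-binding proteins were higher in 11 of 20 and lower in 1, and Golgi tethers and SNAREs higher in 8 of 18. Genes of N-glycosylation were higher in 6 of 15. Signal recognition and insertion gave 6 of 15 higher and 2 lower, and COPI assembly and p24 proteins 3 of 10 higher and 1 lower.

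**Figure D5:**
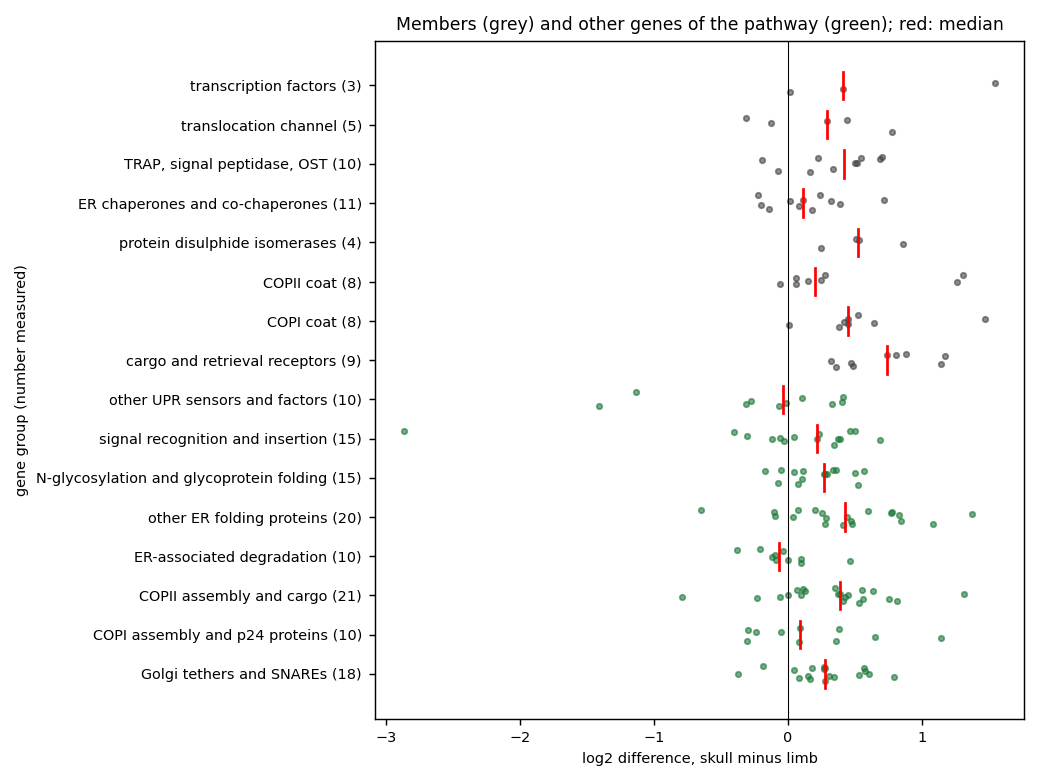
Log2 difference (skull minus limb) of each measured gene (points) with the median of its group (red line), for the 8 member groups (grey) and 8 groups of other genes of the pathway (green). Medians lie between 0.11 and 0.74 in the member groups and just below 0 in the stress response and degradation groups.

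Whole bone holds several cell types, and a difference in the number of secreting cells cannot be told apart here from a difference in RNA per cell. Of the osteoblast and bone matrix markers 6 of 10 were higher in skull and none lower at the adjusted p. The shares of all genes, here and for the lists that follow, were 14.2% higher and 18.1% lower. The summed signal of the 10 markers was 39480 to 51380 in skull and 29120 to 39100 in limb. The brightest of the list, Col1a1, Bglap and Col1a2, did not pass, with differences of 0.19, 0.19 and 0.12 and overlapping arrays. Their mean signals of 7502, 7048 and 7028 lay near the highest deposited signal, 8616.1. Whether the array resolves differences at this level was not tested, so a difference in these 3 RNAs may be understated. All 5 osteoclast markers were higher, with sums of 9054 to 13180 against 3237 to 4085. Of the fibroblast and periosteum markers 4 of 10 were higher and 1 lower, with sums of 16370 to 17160 against 12350 to 15840.

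Most markers of skeletal muscle, erythroid cells and neutrophils went the other way. Beside the counts below stand 14.2% higher and 18.1% lower over all genes. Skeletal muscle markers were lower in 14 of 15 genes and higher in 1, with sums of 695 to 806.4 in skull and 10410 to 26010 in limb. Most of the skull sum came from the 1 higher gene, Myh1, and without it the other 14 summed to 110.4 to 162.8 in skull and 10030 to 25510 in limb. The value of Myh1 rests on the brightest of its 5 probe sets, and the others are not given here. Of the list, 6 genes had skull means below the absent controls. Erythroid markers were lower in 8 of 9, with sums of 12650 to 13010 against 18000 to 23690, and neutrophil markers in 5 of 5, with sums of 8845 to 10970 against 14270 to 18830. Of 7 markers of plasma cells, which also carry a large secretory apparatus, and of the B lineage, 2 were higher and 2 lower, with overlapping sums of 2246 to 2679 against 2414 to 2769. Cartilage markers were lower in 2 of 6, with sums of 106.8 to 132.6 against 153.2 to 257.1, and positional genes of the skull higher in 3 of 5. The part of these cell types in the member differences was not tested. The muscle sum was 26010, 20790, 13720, 12280 and 10410 on limb 1 to limb 5. The member median on the same arrays was -0.17, -0.14, -0.19, -0.18 and -0.22, and a relation between them was not tested.

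As a measure of RNA integrity, the log2 ratio of 3′ to 5′ control probe sets was 0.28 to 0.59 in skull and 0.21 to 0.37 in limb for Gapdh, and 0.75 to 1.04 against 0.57 to 0.86 for beta-actin. Its part in the member differences was not tested. Of 24 further probe sets of 19 members 10 were higher in skull at an adjusted p and 0 lower by limma. Of the 15 that belonged to members past the threshold, 9 were also past it. A dim probe set of Sec63 had the opposite sign, and a probe set of Sec61a1 lay below the floor on all arrays.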

How the data were processed

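Total RNA was labelled by one-cycle amplification and hybridised to 9 arrays. The authors deposited linear intensities from MAS5, scaled alike on each array (medians 33.01 to 36.59). Depth does not apply, and precision is limited by the 4 skull and 5 limb arrays. Groups were taken from titles and source names.

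Of 31042 non-control probe sets 20826 had 1 gene symbol, 436 several and 9780 none in the platform annotation. Of the probe sets naming a gene alone, the one brightest on average (mean log2) stood for it, which gave 14217 genes. Symbols were updated by gene identifier through RefSeq (GRCr8). Each array was divided by its median and multiplied by the mean of the medians, floored at the 10th percentile (2.51) and taken to log2. Skull was compared with limb in limma 3.58.1 (R 4.3.3; lmFit and eBayes with intensity trend), two-sided, on all probe sets. P-values were adjusted over the 14217 genes, or over all 31042 probe sets for further probe sets. The fit was tested on simulated data. The methods' t-test is an equal-variance test per probe set on the same values.

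Members and lists were chosen with earlier results of these data known. Named members were the transcription factors, those past both thresholds, and the brightest and the genes with the largest and smallest difference of each role. Named genes of the other lists were those past both thresholds. Every other gene with values was chosen after its values were seen. Alternatives changed the floor, scaling, filter, probe set rule, adjustment, trend, array weights, test, block and arrays.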

Additional observations from a re-analysis of the deposited data

Results flagged for a closer look

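Among the 24 members named by rule, 48 groups of 4 or 5 arrays were searched for an array far from the others of its site, and chance alone flags about 1 in 20 groups. Of these, 3 were found. Xbp1 was low on limb 5, where the gap to the next array was 0.914 of the range of the limb arrays, with a signal of 724.1 against 874.2 to 889.9. Atf6 was high on limb 5 with a share of 0.85, at 281.9 against 216.5 to 225.2. Kdelr2 was high on limb 1 with a share of 0.754, at 1047 against 826.6 to 876.2. Without limb 5 the difference of Atf6 was 0.09 in place of 0.02.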

How the results depend on the processing

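Over 20 alternatives the members higher in skull at the adjusted p numbered 29 to 40 (37 as reported), those also 2-fold higher 5 or 6, and the median difference 0.35 to 0.47. None was 2-fold lower under any of them. The lowest count at the adjusted p, 29, came with the replicate block, a fit that drops limb 5, and 6 members were then 2-fold higher. The study's methods name groups of rats for both bones together, without saying which arrays share a group. Deviations of same-numbered skull and limb arrays correlated at -0.01 to 0.04, and those of other pairs at -0.04 to 0.02. Of 4 skull arrays 2 correlated best with their own number. Correlations this small cannot exclude a pairing, and the main fit did not pair the samples. A single member was lower at the adjusted p, giving a count of 1, with a pseudocount of 16, with quantile normalization and with dim probe sets left out. Leaving out 1 array at a time gave a count of 0 to 1 (1 without limb 1). Sar1a turned to 0.003 with quantile normalization and 0.30 with the mean of its probe sets, and Atf6 to -0.10 with that mean. Copz1 turned to -0.021 with array weights. With 1 array left out Atf6 ranged from -0.01 to 0.09 and Copz1 from -0.084 to 0.097. The cause was not tested. Sec31a lost its 2-fold call with the mean of its probe sets (0.95). Sec13, Tmed10 and Pdia6, with adjusted p-values near 0.05, kept their calls in only 7, 9 and 12 of the 20 alternatives. The number of arrays limits what small differences can show, and pools hide the spread between animals.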
